A study of Drosophila melanogaster with 6 samples.

Results

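Rab GTPases and the 3 Rab3 regulators that carry the family's name were examined upon Hakai KD in S2R+ cells, an embryonic cell line of Drosophila melanogaster. The members are the protein-coding genes whose symbol begins with Rab and a digit or with RabX. The annotation holds 36 of them, 33 Rab GTPases together with Rab3-GAP (FBgn0027505), Rab3GAP1 (FBgn0051935) and Rab3-GEF, and 35 of the 36 were found among the 17559 identifiers of the count files. The current identifier of Rab1, the Rab of transport from the endoplasmic reticulum to the Golgi, is not among these identifiers, and no table used here pairs an earlier one with it. No value is therefore assigned to Rab1.

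Poly(A) RNA was sequenced from 3 libraries of Hakai KD, treated with dsRNA against Hakai, and 3 of control KD, treated with dsRNA against the bacterial gene lacZ. Per the labels, every culture was at passage 8 to 10 and received 10 μg of dsRNA, given 3 times within 6 days, whereas the study's methods name a smaller amount. Both groups were the same unmodified line, and no genotype differed between them. Hakai is a RING domain protein of the complex that supports N6-methyladenosine (m6A) writing on mRNA, and the comparison asks which transcripts change once it is depleted.

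The libraries held 16041353 to 17288912 counts, and 7811 genes passed the expression filter and were tested with edgeR's quasi-likelihood test and Benjamini-Hochberg adjustment. Normalized counts are counts scaled to the mean effective library size. The targeted transcript was depleted. Hakai (2L, 19580612 to 19582474, minus strand, BDGP6.54) had 68.1, 72.6 and 77.8 normalized counts in Hakai KD, against 296, 329 and 298 in control KD. Its log2 fold change was -2.08 (adjusted p = 1.82e-07 in edgeR, standard error 0.094). Control KD replicate 1 stood apart from the other control libraries, with a chi-square of 11.4 and 14.7 per degree of freedom against them and 2.25 between those. The Hakai KD libraries differed among themselves too. Their values were 5.48 between replicates 1 and 2, 8.10 between 1 and 3 and 4.88 between 2 and 3. Of 10 hemocyte markers, the cell type that S2R+ cells resemble, 9 passed the filter. Of these, 5 were higher upon Hakai KD and none was lower in edgeR's test, where 7.58% of all genes were higher. The uncalled crq, eater and srp had log2 fold changes of -0.039, -0.078 and -0.044, and Sr-CI one of 0.056. The summed level of the 10 markers was 33497 to 34185 normalized counts in Hakai KD and 31063 to 32673 in control KD. Pvr was the largest part of it, with means of 17569 in Hakai KD and 16119 in control KD. The defining marker NimC1 was near 0. Of the markers of other cell types, those of muscle summed to 10.2 to 14.7 normalized counts in Hakai KD and 11.5 to 16.6 in control KD, and those of fat body to 3.15 to 9.15 in Hakai KD and 3.11 to 8.66 in control KD. Neuron markers summed to 332 to 481 in Hakai KD and 420 to 478 in control KD, and germline markers to 320 to 353 in Hakai KD and 316 to 342 in control KD. Most of the neuron sum was elav, with means of 402 in Hakai KD and 419 in control KD. Most of the germline sum was bam, with means of 262 in Hakai KD and 250 in control KD. The part of these shifts in the results on Rab genes was not tested.

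Rab proteins are small GTPases that mark membrane compartments and switch between a GDP-bound and a GTP-bound form. Exchange factors (GEFs) load them with GTP at their membrane, and GTP-bound Rabs recruit effectors such as tethers and motor adaptors. GTPase-activating proteins (GAPs) turn them off again, and the GDP dissociation inhibitor extracts them from the membrane. In hemocyte-like cells, which take up particles from their surroundings, Rab5, Rab7 and Rab11 are known for the early endosome, the late endosome and recycling. Rab3 GAP is a complex of a catalytic subunit, Rab3GAP1, and a non-catalytic one, Rab3-GAP. In human cells the complex is known to act on Rab3 as a GAP and on Rab18 as an exchange factor.

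Both subunits of Rab3 GAP were lower upon Hakai KD, and among the Rab GTPases Rab6 was lower and Rab10 higher. These 4 of 26 tested members, or 15.4%, had an adjusted p under 0.05, where 15.3% of all genes tested were called. One member was called higher and 3 lower, against 7.58% of all genes higher and 7.72% lower. The share of members called was thus close to that of all genes. Without control KD replicate 1, 3 members were called, all of them lower, and the members higher at an unadjusted p under 0.05 were 4. In that fit, 912 of 7886 genes were called, 447 higher and 465 lower. With all libraries, the 2 called Rab GTPases were 8.70% of the 23 tested. The median log2 fold change was -0.014 over the 26 tested members and 0.00058 over all genes. Scaling by library size alone moved the median of all genes to -0.035, with 374 genes higher and 922 lower in place of 592 and 603. The libraries are bulk RNA, in which fewer cells of a kind and less RNA per cell cannot be told apart.

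**Figure D1:**
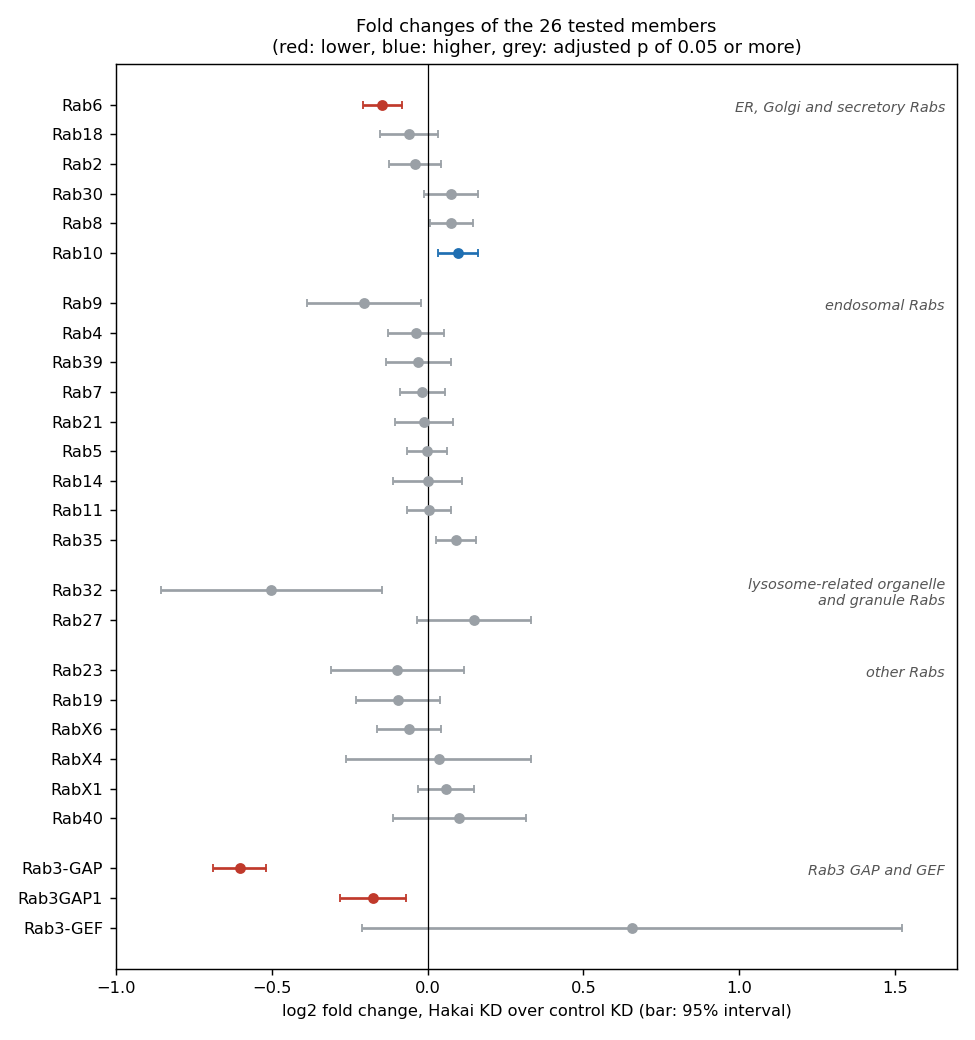
Log2 fold changes (x axis, Hakai KD over control KD) of the 26 tested members (y axis), grouped by known role, with points for the estimate of edgeR and bars for its 95% interval. Rab3-GAP stands at -0.60 and the endosomal Rabs lie between -0.20 and 0.09.

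Rab3-GAP, the non-catalytic subunit, fell most of all tested members. The gene lies on the minus strand of 2L from 12058304 to 12063184 in BDGP6.54, where its exons are clear of other annotated genes. The transcript had 714, 753 and 736 normalized counts in Hakai KD, against 1119, 1119 and 1106 in control KD. The groups lay far apart, and the spread within each was a few percent of its mean. The means were 734 ± 19.6 (SD, n = 3) in Hakai KD and 1115 ± 7.80 (SD, n = 3) in control KD. Rab3-GAP thus fell by 34.1%, at a log2 fold change of -0.60 (adjusted p = 4.64e-06 in edgeR, standard error 0.039). Over 13 alternatives in scaling, filter, test and libraries the log2 fold change stayed between -0.64 and -0.58, with an adjusted p of at most 0.000141.

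Rab3GAP1, the catalytic subunit, changed less. It lies on 2L from 1594822 to 1611157, again free of overlapping exons, and thus far from Rab3-GAP on the same chromosome arm. Its normalized counts were 617, 608 and 577 in Hakai KD, against 667, 707 and 663 in control KD. All 3 Hakai KD libraries lay below all control libraries. It fell by 11.5% (log2 fold change -0.18, standard error 0.048, adjusted p = 0.0299 in edgeR). This call was lost in DESeq2 and without control KD replicate 2, Hakai KD replicate 2 or Hakai KD replicate 3, with an adjusted p of up to 0.148.

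The fall was thus unequal between the subunits. The ratio of Rab3-GAP to Rab3GAP1 in normalized counts per kb of exon averaged 0.862 ± 0.0428 (SD, n = 3) in Hakai KD and 1.16 ± 0.0370 (SD, n = 3) in control KD. In counts without regard to length, the ratio was 1.16, 1.24 and 1.28 in Hakai KD and 1.68, 1.58 and 1.67 in control KD. It was lower in 3 of 3 Hakai KD libraries than in any control library (exact permutation test, two-sided, p = 0.1, which no comparison of 3 with 3 can go below). This ratio was chosen after the values of both genes were seen. Per kb, the non-catalytic subunit was the more abundant transcript in control KD and the less abundant one in Hakai KD. This change of order rests on the annotated exon lengths of 4340 bp for Rab3-GAP and 3058 bp for Rab3GAP1. The transcript lengths used in these cells were not measured. Without regard to length, Rab3-GAP had the higher normalized counts in every library of both groups.

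The known substrates and partners of the complex were measured in the same libraries. Rab3, the Rab of synaptic vesicles, was nearly silent, with 1, 0 and 2 counts in Hakai KD and 2, 0 and 3 in control KD, and was not tested. Rab18, a Rab of the endoplasmic reticulum and lipid droplets, had 920, 855 and 853 normalized counts in Hakai KD, against 898, 924 and 916 in control KD. Its groups overlapped, and its log2 fold change was -0.059 with a 95% interval of -0.15 to 0.034. Rab3-GEF, the exchange factor of Rab3, had 21.3, 8.83 and 16.8 normalized counts in Hakai KD, against 12.5, 11.5 and 5.18 in control KD. These groups overlapped too, and at this depth the interval of its log2 fold change ran from -0.21 to 1.52.

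**Figure D2:**
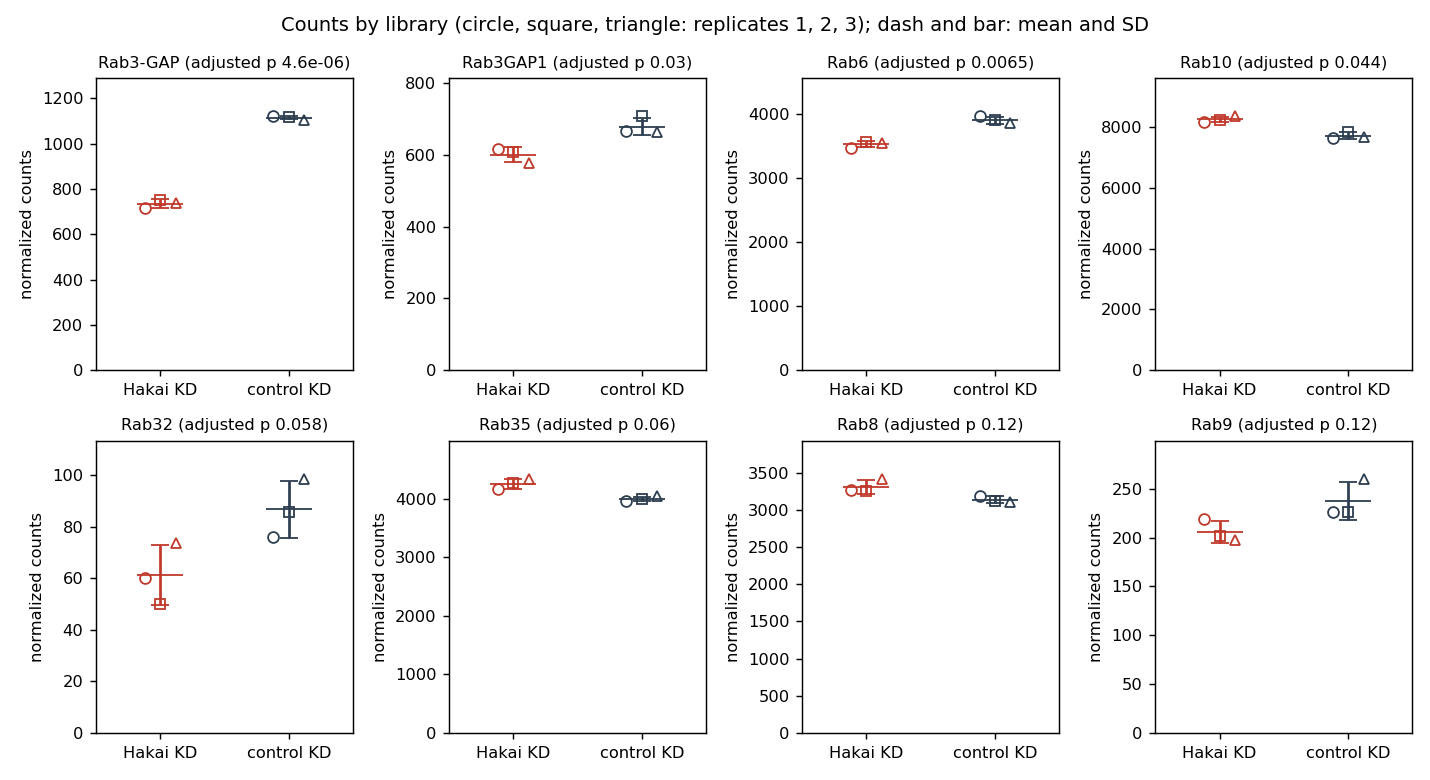
Normalized counts (y axes, starting at 0) of 8 members in each library of Hakai KD (red, left) and control KD (dark, right), with circles, squares and triangles for replicates 1, 2 and 3 and a dash and bar for mean and SD. Rab3-GAP is the member with the widest gap, and the gaps of Rab6, Rab10 and Rab35 are narrow against their level.

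Of the 6 tested Rabs of the endoplasmic reticulum, the Golgi and secretion, Rab6 was lower and Rab10 higher. Of all genes tested, 15.3% were called. Rab6, a Rab of transport at the Golgi, lies on 2L from 12107221 to 12109116. It had 3472, 3568 and 3545 normalized counts in Hakai KD, against 3958, 3900 and 3849 in control KD. The groups were separate, and Rab6 fell by 9.58% (log2 fold change -0.15, standard error 0.029, adjusted p = 0.00646 in edgeR). This call was kept in all 13 alternatives, with an adjusted p of at most 0.0350.

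Rab10 (X, 20251338 to 20254691) is known for exocytosis and, in the follicle cells of the fly, for the secretion of basement membrane proteins. Its normalized counts were 8190, 8257 and 8358 in Hakai KD, against 7639, 7851 and 7681 in control KD. The groups did not overlap, and the transcript rose by 7.05% (log2 fold change 0.098, standard error 0.029, adjusted p = 0.0444 in edgeR). This small rise kept its direction but was called in only 3 of 13 alternatives, with an adjusted p between 0.0298 and 0.190. It was lost in DESeq2, without the filter on low counts, with library size alone and whenever any 1 of the 6 libraries was left out.

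The other secretory members did not pass the threshold. Rab8, of transport from the Golgi to the plasma membrane, had 3267, 3247 and 3412 normalized counts in Hakai KD, against 3192, 3120 and 3099 in control KD, with an adjusted p of 0.122 in edgeR. Rab30, a Golgi Rab, had a log2 fold change of 0.075 (adjusted p = 0.231 in edgeR), and its normalized counts were 971, 973 and 934 in Hakai KD, against 933, 909 and 889 in control KD. For both, each Hakai KD library lay above each control library, and the groups did not overlap in 34.9% of all genes tested. Rab2, which acts at the Golgi and in delivery to lysosomes, overlapped between the groups and had a log2 fold change of -0.040 with an interval of -0.12 to 0.043.

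None of the 9 endosomal Rabs was called in edgeR's test or in DESeq2, and an unadjusted p under 0.05 was reached by 2 of them in edgeR and by 1 in DESeq2. Of all genes, edgeR called 15.3% and DESeq2 called 810 of 7909 at the adjusted threshold. How many of all genes had an unadjusted p under 0.05 was not counted. Rab11, of the recycling endosome, was the member with the highest level. It had 13198, 13195 and 13287 normalized counts in Hakai KD, against 12816, 13358 and 13373 in control KD, and the groups overlapped. The 95% interval of its log2 fold change was narrow, at -0.064 to 0.074. That of Rab5, which drives early endosome fusion, was narrow too, at -0.065 to 0.063. Rab7, of the late endosome and lysosome, had 6360, 6208 and 6410 normalized counts in Hakai KD, against 6606, 6236 and 6355 in control KD, with an interval of -0.088 to 0.055. Rab4, Rab14, Rab21 and Rab39 also overlapped between the groups, with log2 fold changes of -0.037, 0.00050, -0.011 and -0.030.

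The 2 endosomal members with an unadjusted p under 0.05 had estimates of opposite sign. Rab35, known for recycling to the plasma membrane, had 4168, 4271 and 4335 normalized counts in Hakai KD, against 3964, 3997 and 4039 in control KD. Its groups were separate, and its log2 fold change of 0.090 had an adjusted p of 0.0599 in edgeR, below the threshold in 1 of 13 alternatives, where at least 10 counts were asked of every library (0.0498). Rab9, of transport from late endosomes to the Golgi, had 219, 201 and 198 normalized counts in Hakai KD, against 226, 227 and 260 in control KD. Its log2 fold change was -0.20 (standard error 0.083, adjusted p = 0.124 in edgeR), and no alternative called it.

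Rab32, of lysosome-related organelles such as the pigment granules of the fly eye, had a larger estimated change than any other Rab GTPase tested, at a low level. Its normalized counts were 60.0, 50.1 and 73.6 in Hakai KD, against 76.02, 85.5 and 98.3 in control KD. The groups were separate but wide (log2 fold change -0.50, standard error 0.16, adjusted p = 0.0581 in edgeR). The adjusted p lay between 0.0203 and 0.195 over the alternatives, of which 4 of 13 called it. Rab27, a Rab of regulated exocytosis, had 317, 340 and 384 normalized counts in Hakai KD, against 335, 317 and 285 in control KD, with overlapping groups and an adjusted p of 0.262 in edgeR.

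The 6 tested members outside these groups were Rab19, Rab23, Rab40, RabX1, RabX4 and RabX6. Their log2 fold changes lay between -0.098 for Rab23, known for planar polarity in the fly, and 0.10 for Rab40, a Rab with a SOCS box that links to ubiquitin ligases. None was called, and none had an unadjusted p under 0.05 in edgeR or DESeq2. At the adjusted threshold, edgeR called 15.3% of all genes tested and DESeq2 called 810 of 7909. The share of all genes with an unadjusted p under 0.05 was not counted. RabX4 overlaps exons of Kaz in the same orientation, which makes its counts uncertain, and its normalized counts were 116, 103 and 108 in Hakai KD, against 121, 85.5 and 113 in control KD. Exons of Rab19, RabX6 and Rab4 overlap those of Arl5, Vti1a and Dcr-2 on the other strand. In all, 6 of the 26 tested members overlap another gene, and the 4 called members are not among them.

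Separation of the groups was counted as well. Every Hakai KD library lay on one side of every control library in 12 of 26 members, or 46.2%, 5 of them above and 7 below, and in 34.9% of all genes tested. For 15 of the 26 members, the 95% interval of the log2 fold change lay within 0.2 of 0 on both sides. This count was not made over all genes, so it does not set the members apart. The median absolute log2 fold change was 0.076 over the tested members and 0.084 over all genes tested. Summed over the Rab GTPases other than Rab1, the normalized counts were 59235, 58984 and 59702 in Hakai KD, against 58376, 59108 and 59335 in control KD. These sums overlapped, with a difference of 0.623% between the means.

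The levels of the members spanned several orders of magnitude. Per kb of exon, Rab11 had 7287 ± 28.7 (SD, n = 3) normalized counts in Hakai KD and 7263 ± 175 (SD, n = 3) in control KD. It was followed by Rab7 with 3721 ± 61.9 (SD, n = 3) in Hakai KD and 3764 ± 111 (SD, n = 3) in control KD, and by Rab10 with 3540 ± 36.2 (SD, n = 3) in Hakai KD and 3306 ± 48.1 (SD, n = 3) in control KD. In control KD 10 members lay above 1000 normalized counts per kb, Rab2, Rab5, Rab6, Rab8, Rab35, Rab4 and Rab18 among them. The Rab3 GAP subunits lay lower, with Rab3-GAP at 169 ± 4.52 per kb in Hakai KD and 257 ± 1.80 in control KD (SD, n = 3 each). Rab3GAP1 lay at 196 ± 6.82 per kb in Hakai KD and 222 ± 8.01 in control KD (SD, n = 3 each). At the low end, Rab3-GEF had 1.80 per kb in Hakai KD and 1.12 in control KD.

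**Figure D3:**
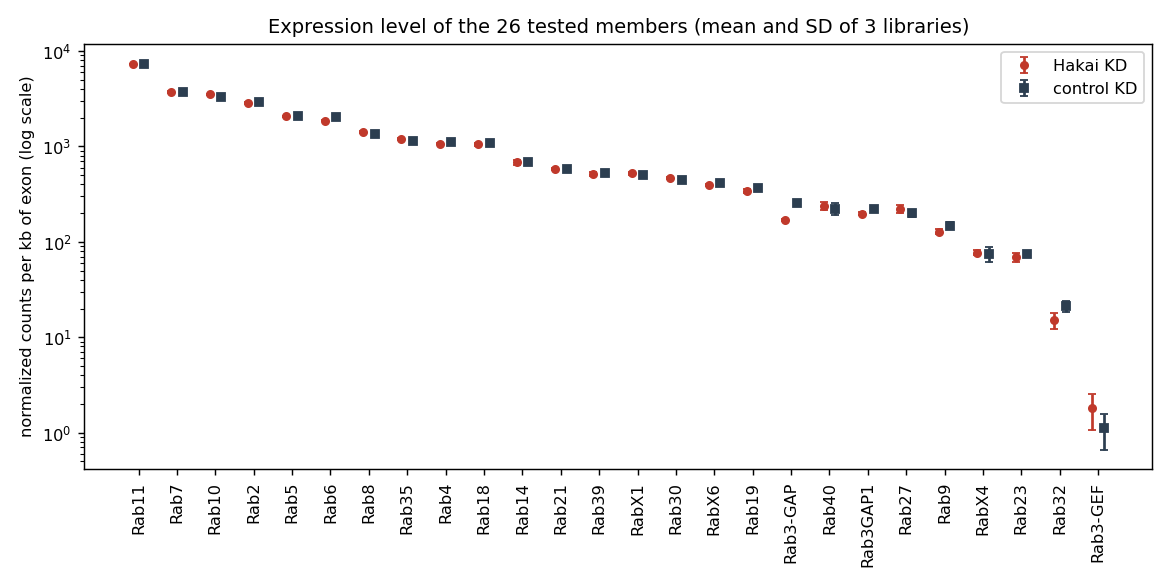
Normalized counts per kb of exon (y axis, log scale) of the 26 tested members in order of their control KD level (x axis), as mean and SD of 3 libraries of Hakai KD (red circles) and control KD (dark squares). Rab11 leads at 7287 in Hakai KD and 7263 in control KD, and Rab3-GAP is the clearest of the gaps in the middle range.

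Of the 35 members, 9 did not pass the expression filter. RabX2, RabX5, Rab9D, Rab9E, Rab9Fa and Rab9Fb had 0 counts in all 6 libraries, which allows up to 3 counts in each, or at most 0.174 to 0.187 CPM (counts scaled to the library total). Rab9Db had 1 count in control KD replicate 1 and 0 elsewhere. The Rab9-related genes lie within a short stretch of the X chromosome, and reads shared by such copies could have been dropped or split in the counting. Rab26, a Rab of secretory granules, had 1 count in each Hakai KD library, against 0, 2 and 0 in control KD. Rab3 and Rab26 were thus at or near 0 in these cells, while Rab27 and Rab32 were detected in every library.

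Genes that control Rabs were then examined, from a list of 42 symbols of regulators of which 40 were found in the files and tested, Rab3-GEF among them. The called ones were 7, or 17.5%, against 15.3% of all genes, with 3 higher and 4 lower. With 1 library left out, between 1 (without control KD replicate 2) and 6 (without control KD replicate 3) regulators were called. Of all genes, 708 of 7893 were called without control KD replicate 2 and 971 of 7894 without control KD replicate 3. The median log2 fold change of the list was -0.032. Of 14 genes with a TBC domain, the domain of most Rab GAPs, 3 were higher and 1 lower. Of all genes tested, 7.58% were called higher and 7.72% lower. RN-tre, known in mammals as a GAP of Rab5, had 4954, 4920 and 4901 normalized counts in Hakai KD, against 4458, 4462 and 4499 in control KD. Its rise of 10.1% (log2 fold change 0.14, standard error 0.028, adjusted p = 0.00649 in edgeR) was called in all 13 alternatives.

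Evi5, known as a GAP of Rab11 in migrating border cells of the fly, had 2037, 1840 and 1808 normalized counts in Hakai KD, against 1633, 1626 and 1664 in control KD. It rose by 15.5% (log2 fold change 0.21, adjusted p = 0.0112 in edgeR), and the call was lost without control KD replicate 2 (0.0522). Tbc1d15-17, related to GAPs of Rab7, rose by 8.84% (adjusted p = 0.0317 in edgeR), with 1824, 1756 and 1781 normalized counts in Hakai KD, against 1650, 1648 and 1626 in control KD. Tbc1d8-9 fell by 7.76% (adjusted p = 0.0486 in edgeR), with 3810, 3598 and 3671 normalized counts in Hakai KD, against 4171, 3949 and 3891 in control KD. These 2 calls were made in 3 and 8 of 13 alternatives.

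The remaining calls among the regulators were decreases. The list holds 10 symbols for subunits of TRAPP, the exchange complex of Rab1 and Rab11, of which 8 were found in the files and tested. These 8 had log2 fold changes below 0, and 2 of them were called lower, against 7.72% of all genes. Trs31 had 326, 336 and 373 normalized counts in Hakai KD, against 402, 402 and 417 in control KD. It fell by 15.3% (adjusted p = 0.0252 in edgeR). SIDL, with 922, 897 and 918 normalized counts in Hakai KD, against 1059, 1009 and 983 in control KD, fell by 10.4% (adjusted p = 0.0238 in edgeR). Negative log2 fold changes were found in 3891 of all 7811 genes. Rep, the escort protein that presents new Rabs for prenylation, fell by 8.57% (adjusted p = 0.0255 in edgeR), with 1737, 1718 and 1718 normalized counts in Hakai KD, against 1927, 1895 and 1835 in control KD. Trs31 and SIDL were called in 8 of 13 alternatives each and Rep in 7. Gdi, the GDP dissociation inhibitor, had an adjusted p of 0.0533 in edgeR, with a mean of 6954 ± 57.0 (SD, n = 3) in Hakai KD and 6501 ± 156 (SD, n = 3) in control KD.

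Among 44 listed effectors and tethers, 43 were found and tested, and 6 of these, or 14.0%, were called, against 15.3% of all genes. Mical was higher and 5 were lower, and the median log2 fold change of the list was -0.048. With 1 library left out, between 3 (without control KD replicate 2 or Hakai KD replicate 2) and 8 (without control KD replicate 3) effectors were called. Of all genes, 708 of 7893 were called without control KD replicate 2 and 740 of 7893 without Hakai KD replicate 2. Without control KD replicate 3, 971 of 7894 genes were called. With all libraries, the 5 lower effectors were subunits of tethering complexes and golgins, the coiled-coil tethers of the Golgi. Such genes make up much of the list. The 43 tested genes include 5 subunits of the HOPS tethering complex, 8 of the exocyst tethering complex and 9 golgins. The gene dor (Vps18), encoding a HOPS subunit that Rab7 recruits at the lysosome, had 2141, 2137 and 2190 normalized counts in Hakai KD, against 2436, 2519 and 2381 in control KD. It fell by 11.9% (log2 fold change -0.18, standard error 0.033, adjusted p = 0.00427 in edgeR) and was called in all 13 alternatives.

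Of the 8 exocyst subunits, which tether secretory vesicles at the plasma membrane, Sec6 and Sec3 were lower. The share of all genes called lower was 7.72%. Sec6 had 1784, 1719 and 1778 normalized counts in Hakai KD, against 2215, 1988 and 1931 in control KD. It fell by 13.9% (adjusted p = 0.0128 in edgeR). Sec3 fell by 9.73% (adjusted p = 0.0266 in edgeR), with 1187, 1228 and 1210 normalized counts in Hakai KD, against 1379, 1353 and 1283 in control KD. The other exocyst subunits did not pass the threshold. Of the 8, 7 had log2 fold changes below 0, as did 3891 of all 7811 genes. The exception was Sec15, an effector of Rab11, with a log2 fold change of 0.052. Without Hakai KD replicate 2, the adjusted p of Sec6 was 0.0551, and Sec3 was called in 8 of 13 alternatives.

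The 9 listed golgins had log2 fold changes below 0, as did 3891 of all 7811 genes, and 2 were called lower, against 7.72% of all genes. Golgin97 had 708, 736 and 749 normalized counts in Hakai KD, against 817, 879 and 832 in control KD. It fell by 13.3% (adjusted p = 0.0106 in edgeR), a call lost without control KD replicate 2 (0.0562). GCC185 had 1142, 1108 and 1163 normalized counts in Hakai KD, against 1333, 1238 and 1227 in control KD. It fell by 10.2% (adjusted p = 0.0307 in edgeR), and was called in 8 of 13 alternatives. Mical, an actin-oxidizing enzyme whose mammalian relatives bind Rabs, rose by 11.5% (log2 fold change 0.16, adjusted p = 0.00807 in edgeR), with 2678, 2629 and 2578 normalized counts in Hakai KD, against 2403, 2376 and 2294 in control KD. Mical was called in all 13 alternatives. BicD, the adaptor between Rab6 and dynein, had a log2 fold change of 0.067 and an adjusted p of 0.248 in edgeR. The listed effectors of Rab3 and Rab27 had low counts. Rph had 66.1, 87.4 and 73.6 normalized counts in Hakai KD, against 49.1, 54.7 and 84.9 in control KD, and Rim and btsz stayed under 20 in every library. None of these 3 passed the threshold, and their groups overlapped.

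Of the 13 called regulators and effectors, Evi5, Golgin97, Sec6 and Sec3 have no exon overlap with another gene in the annotation. Mical shares exon sequence with CG31407 on the same strand, and this gene did not pass the filter. The other 8 overlap a gene on the opposite strand. The library kit marks strand, but the strand setting of the counting is not given in the sources used here. None of the overlapping genes that was tested was called, with log2 fold changes from -0.049 for DCAF12, beside GCC185, to 0.058 for hpo, beside Rep.

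**Figure D4:**
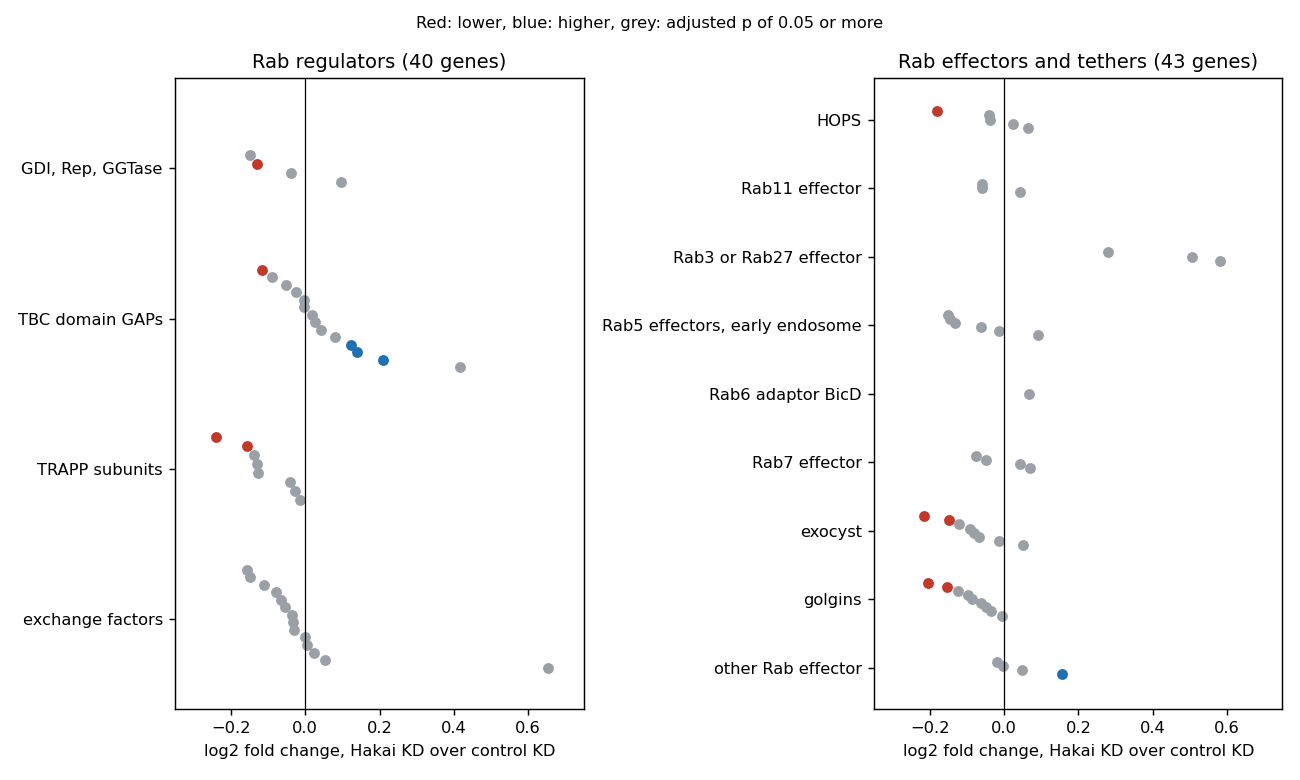
Log2 fold changes (x axis, Hakai KD over control KD) of 40 Rab regulators (left panel) and 43 effectors and tethers (right panel), 1 point per gene, in rows by function (y axis), with red for lower, blue for higher and grey for an adjusted p of 0.05 or more. Blue points at 0.12, 0.14 and 0.21 are the TBC genes called higher, and the golgin and TRAPP rows lie left of 0.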

How the data were processed

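The authors sequenced poly(A) RNA of S2R+ cells as single reads, mapped the reads with STAR (2.5.1b in the submitters' processing notes) to BDGP6, counted them per gene with featureCounts (1.5.1) and deposited raw counts per library, neither normalized nor pooled. How reads that map to several places were treated is not given in the sources used here. Further steps used edgeR 4.0.16 (R 4.3.3) on these deposited counts. Low genes were removed by filterByExpr (minimum count 10, minimum total 15), scaled by TMM and compared by the quasi-likelihood test, with a threshold of 0.05 on Benjamini-Hochberg adjusted p over all genes tested. Standard errors are the log2 fold change over the square root of its F statistic, and the 95% intervals built from them are approximate. The test was tried beforehand on counts simulated from the means and dispersions of these libraries. Such counts cannot show how far these libraries depart from the model that the test assumes. Symbols, exon lengths and positions were taken from Ensembl release 115 (BDGP6.54), a later annotation of the assembly, which names 17253 of 17559 identifiers.

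The study's supplement calls the 3 libraries of a group biological replicates. The labels only number them and do not describe separate cultures, so that p-values measure the spread between these libraries. The members and lists were chosen with earlier results of these data known, and groups by role were set by hand. Values of each library are given for Hakai, for the called members, for the 10 members with the smallest p, for the 3 with the highest level per kb and for up to 10 called genes per list. Other members are summarised, with values added for those described by role. Intervals and limits for 0 counts cover counting error or library spread only. The listed symbols Trs130, gry and Vps16A matched no identifier and were not used. The alternatives were DESeq2 1.42.0, limma-voom (limma 3.58.1), other scaling, other filters, a block on the replicate number and omission of each library in turn. Protein sequences and splicing were not analysed here.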

Additional observations from a re-analysis of the deposited data

How the results depend on the processing

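The number of members called, 4 with all libraries, was 2 in DESeq2 and 2 to 3 with one library left out (2 without control KD replicate 2 or Hakai KD replicate 2). Of all genes, 1195 of 7811 were called with all libraries, 810 of 7909 in DESeq2 and 1296 of 7811 with library size alone. With one library left out, calls among all genes ranged from 708 of 7893 (without control KD replicate 2) to 1014 of 7887 (without Hakai KD replicate 3). Without Hakai KD replicate 2, 740 of 7893 genes were called. The number of members called higher was 0 in DESeq2, with library size alone, without a filter on low counts and with any one library left out (0 to 0), but 2 where each library had to hold 10 or more counts of a gene. In these fits with 0, between 0 and 4 members were higher at an unadjusted p under 0.05. The number called lower stayed within 1.5 times of 3 throughout. The median log2 fold change of the tested members was -0.049 with library size alone, which shifts all genes, and ranged from -0.025 to -0.0027 with one library left out. The number of regulators called was 2 in DESeq2 and 1 to 6 with one library left out, where the lowest was without control KD replicate 2. The number of effectors called was 10 with library size alone and 3 to 8 with one library left out (3 without control KD replicate 2 or Hakai KD replicate 2). The log2 fold change of Rab11 became -0.030 with library size alone and -0.00059 without a filter, and ranged from -0.016 to 0.015 with one library left out, as that of Rab7 did from -0.034 to 0.0066. Apart from the construction of library size alone, the cause of these moves was not tested. Among the other single-gene comparisons, 270 kept direction and side of the threshold, 58 lost the threshold and 5 gained it.

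With the replicate number as a block, 4 members were called, 0 of them higher and 4 lower, since Rab10 lost the threshold and Rab32 passed it. The same number does not mark a shared culture in the labels, and same-numbered libraries did not deviate together (correlations of -0.070, -0.033 and -0.074 across genes). At this depth, changes of members under about 100 normalized counts, such as Rab32, and above all of Rab3-GEF, are known only within wide intervals.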
